A study of Homo sapiens with 2 samples.

Results

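Olfactory receptor, keratin and interferon alpha genes lie in tandem clusters that are largely unused in resting fibroblasts, and their chromatin contacts were followed here in 5 windows of the hg19 genome. The windows were the olfactory receptor clusters of chromosome 11 at 4.4 to 6.2 Mb (short arm) and 55.0 to 56.6 Mb (long arm), the type I keratins of chromosome 17 at 38.8 to 39.8 Mb, the type II keratins of chromosome 12 at 52.56 to 53.3 Mb and the interferon alpha genes of chromosome 9 at 21.05 to 21.44 Mb. Members were all listed interactions with at least 1 anchor overlapping a window. There were 307 of 150390 interactions in the senescent library and 27 of 12221 in the control library. The data were METTL3 HiChIP from IMR90, a line of human embryonic lung fibroblasts labelled wild type. Senescent cells were made with an inducible fusion of the estrogen receptor and oncogenic H-RAS; the other library is labelled control, and each state had 1 library. HiChIP joins DNA ends that are close in the nucleus and enriches the joined fragments by immunoprecipitation, here of METTL3, the catalytic subunit of the enzyme that methylates adenosines in RNA. A deposited row names a pair of intervals, called anchors, and counts the paired-end tags (PETs) seen between both.

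The senescent table was larger throughout, with 12.3 times the interactions and 12.8 times the PETs of the control table (184165 against 14373 PETs), so values are given as counts and as shares of each library. An interaction had a median of 1 PET in both. With 1 library per state no difference has a replicate check and no test between the states was possible. All intervals are at 95% and cover counting error alone. The tables list only pairs of anchors with at least 1 PET, so an entry of 0 means that nothing was listed and sets no upper limit.

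Olfactory receptors are G protein-coupled receptors of sensory neurons of the nose. Each neuron uses a single receptor gene, and in other cells the clusters are packed in silent chromatin. Keratins are the intermediate filament proteins of epithelia, where a type I chain pairs with a type II chain; fibroblasts build their filaments mainly from vimentin. The keratin-associated proteins, encoded among the type I genes, belong to hair. Type I interferons (the alpha genes and IFNB1) are secreted signals that viral or cytosolic nucleic acids switch on, and IFNB1 is the interferon fibroblasts are best known for once infected.

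In RefSeq (GRCh38.p14), the run of genes from TRIM21 to OR52W1, which stands for the short-arm cluster, held 69 protein-coding genes, 54 of them olfactory receptors. The other 15 included 5 beta-globin genes (HBB, HBD, HBG1, HBG2 and HBE1), the red cell globins, and TRIM5, TRIM6, TRIM22 and TRIM34, which encode antiviral or related ubiquitin ligases. The long-arm run from TRIM48 to OR5AK2 held 46 receptors among 48 genes. The type I keratin run from KRT222 to KRT17 held 62 genes, 34 of them for keratin-associated proteins, and the type II run from KRT80 to KRT8 held 26 keratins. The interferon run from IFNB1 to IFNA1 held 13 alpha genes, IFNB1, IFNW1 and the unrelated KLHL9. No hg19 annotation was used, so anchors are given by position and not by gene. Expression was not measured, so that the silence of these genes was not checked.

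The promoters of the clusters had few CpG dinucleotides, which are frequent in most human promoters. Over the RefSeq promoter table (250 bases before to 50 bases after the start), the median was 1 CpG in each olfactory cluster (41 and 43 promoters) and among the interferons (12), and 2 in the type I (56) and type II keratins (15). It was 21 over 22199 promoters of protein-coding genes. At least 10 CpGs stood in 1 of 41 short-arm olfactory promoters, in 1 of 56 type I keratin promoters and in none of the other 3 families, against 70.1% of protein-coding promoters. The 120 bases before the start of 5 genes follow, 5′ to 3′ on the strand of the gene, with CpG in capitals, as examples from 3 of the families: OR5D18 at chr11:55819510-55819629 (plus strand), KRT5 at chr12:52520395-52520514 (minus), IFNA1 at chr9:21440319-21440438 (plus), IFNA2 at chr9:21385399-21385518 (minus) and IFNB1 at chr9:21077943-21078062 (minus), all in GRCh38.p14.
OR5D18: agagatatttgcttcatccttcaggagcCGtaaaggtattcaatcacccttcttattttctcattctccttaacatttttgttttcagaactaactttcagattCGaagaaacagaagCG
KRT5: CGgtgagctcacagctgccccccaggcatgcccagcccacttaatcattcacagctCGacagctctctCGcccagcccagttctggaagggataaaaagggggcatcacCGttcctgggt
IFNA1: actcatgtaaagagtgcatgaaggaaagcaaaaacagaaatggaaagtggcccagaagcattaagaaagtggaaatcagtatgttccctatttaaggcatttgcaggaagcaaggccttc
IFNA2: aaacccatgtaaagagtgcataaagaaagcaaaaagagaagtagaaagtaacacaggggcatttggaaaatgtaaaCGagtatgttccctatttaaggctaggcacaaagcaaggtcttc
IFNB1: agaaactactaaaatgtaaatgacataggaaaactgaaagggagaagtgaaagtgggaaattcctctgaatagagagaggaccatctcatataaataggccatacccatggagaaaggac

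The olfactory and keratin examples were richer in CpG than their clusters' medians, with 5 in 300 bases for OR5D18 and 7 for KRT5. The shown stretch held 3 CpGs for OR5D18, 4 for KRT5, 1 for IFNA2 and none for IFNA1 or IFNB1. The interferon promoters were also alike, with a median identity of 69.7% over the 55 pairs of 11 alpha promoters (the 250 bases before the start, aligned end to end). The closest pair, IFNA10 and IFNA21, reached 94.1%. Among the type I keratin run the closest pair was KRTAP4-11 and KRTAP4-8 at 92.5%, with a median of 51.2% over 1378 pairs. Reads from such near copies can be hard to place; how they were handled is not given in the sources used here, and its part in the counts was not tested. The motif GATC, at which MboI cut the chromatin, stood in 39.0% and 32.6% of the short-arm and long-arm olfactory promoters, 39.3% of type I and 86.7% (13 of 15) of type II keratin promoters and 8.3% (1 of 12) of interferon promoters, against 8870 of 22199 protein-coding promoters. TATAAA, searched on both strands, stood in 78.6% of type I keratin promoters (44 of 56) and 9.5% of protein-coding promoters. The other shares were 43.9% and 34.9% for the short-arm and long-arm olfactory promoters, 6 of 15 for the type II keratins and 8.3% for the interferons.

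Nearly all contacts of the 5 windows were keratin contacts. The type I and type II keratin windows together held 286 of 307 interactions in the senescent library and 25 of 27 in the control library. The olfactory windows held 17 and 0, and the interferon window held 4 and 2. Over the 5 windows, the interactions made up 0.204% of the senescent library (0.182 to 0.228%, exact Clopper-Pearson interval) and 0.221% of the control library (0.146 to 0.321%), which put the senescent over the control share at 0.924 (0.623 to 1.43, an exact binomial interval given the sum of both counts). The PETs, 372 and 31, gave 0.937 (0.649 to 1.40). With both anchors required in the same window, the 5 windows gave 0.534 (0.343 to 0.867) for interactions and 0.584 (0.390 to 0.908) for PETs, both below 1. All 23 control interactions of this kind lay in the type I window, beside 89 senescent ones. The type II window had 57 senescent and 0 control ones, and the short-arm olfactory window 5 and 0. The windows were unlike: the type I share was lower in the senescent library, and type II contacts were listed there alone.

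**Figure D1:**
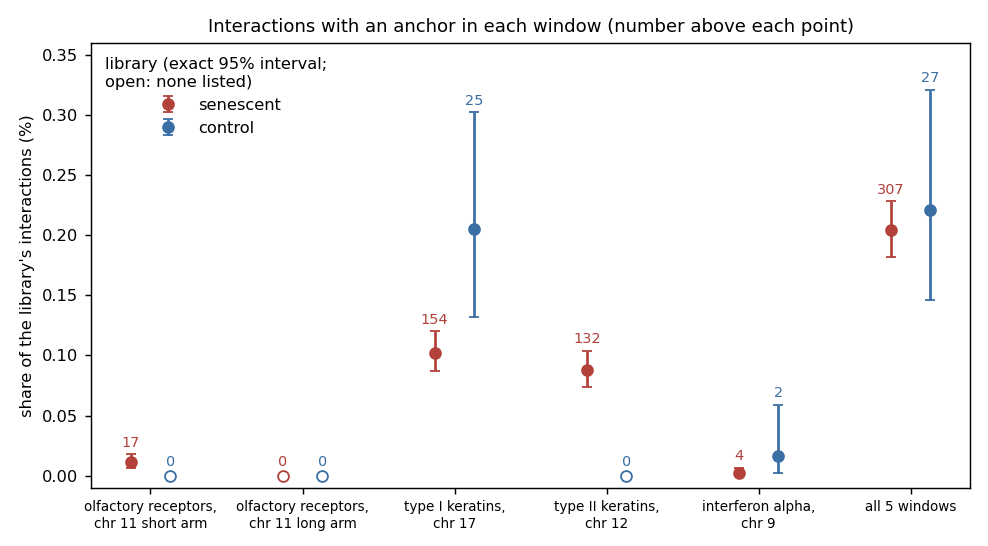
Share of each library's interactions (y axis, %) with an anchor in each window and in all 5 (x axis); points are shares with exact 95% intervals, numbers are interactions, and open points mark windows where none was listed. The senescent share is the lower for the type I keratins (154 interactions, 0.102%, against 25, 0.205%, in the control library), and the type II keratins have 132 senescent and 0 control interactions.

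Anchors were as unevenly spread. By midpoint, the senescent library had 5.0 anchors per Mb in the short-arm olfactory window (2.29 to 9.49, exact Poisson interval), none in the long-arm window, 44.0 in the type I keratins (32.0 to 59.1), 43.2 in the type II keratins (29.6 to 61.0) and 10.3 in the interferon window (2.79 to 26.3), against 25.8 over the autosomes. Thus the senescent keratin windows were denser in anchors than the autosomes at large, and the olfactory windows sparser. Of same-length windows tiled along the autosomes, 22.1% and 24.4% held at least as many senescent anchors as the type I and type II windows. At most as many as in the short-arm and long-arm olfactory windows were held by 21.4% and 10.9%. The control library had 16.0 per Mb in the type I keratins (9.15 to 26.0), 2.56 in the interferon window (0.0649 to 14.3) and none in the other windows, against 4.24 over the autosomes. Cut into 100-kb pieces, the windows had no anchor in 30 of 54 senescent pieces (55.6%, 41.4 to 69.1%) and 49 of 54 control pieces (90.7%, 79.7 to 96.9%). Over all autosomes, 39.4% of senescent and 78.7% of control pieces were empty. The empty senescent pieces were 13 of 18 olfactory pieces on the short arm, 16 of 16 on the long arm and 1 of 3 in the interferon window. All 10 type I and all 7 type II keratin pieces held an anchor in that library.

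**Figure D2:**
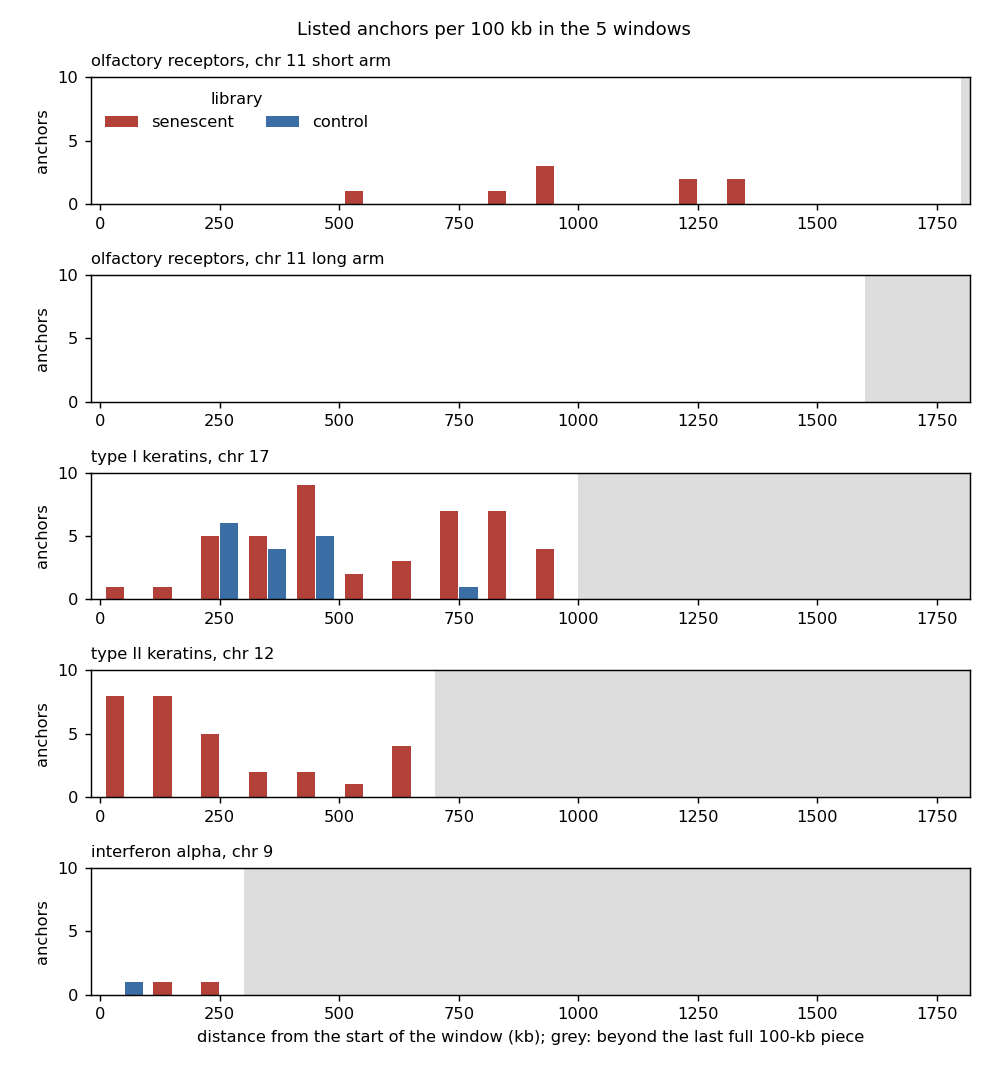
Number of listed anchors (y axis) per 100 kb along each window, by distance from its start (x axis, kb), for the senescent and control libraries; grey areas lie beyond the last full piece. Senescent anchors stand in all 10 type I and all 7 type II keratin pieces and in 5 of 18 short-arm olfactory pieces, and control anchors in 4 type I pieces and 1 interferon piece.

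The flanks of the windows were the denser side in the senescent library, except for 1 flank each of the interferon and long-arm olfactory windows. In flanks of the same length, the senescent library had 43.3 anchors per Mb before and 23.3 after the short-arm olfactory window, and 57.0 and 95 around the type I keratins. Around the type II keratins the values were 75.7 and 81.1. For the interferon window they were 7.69 before and 56.4 after, and for the long-arm olfactory window 0 and 28.1. Over the 5 windows the senescent density was 0.389 times that of the flanks (0.312 to 0.478), and the control density was 0.872 times that of its flanks (0.508 to 1.40). These intervals took the flank counts as fixed and leave out their counting error. With flanks of 500 kb the ratios were 0.317 and 0.512. The control type I keratin window went the other way, at 16.0 anchors per Mb against 7.0 before and 9.0 after it.

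**Figure D3:**
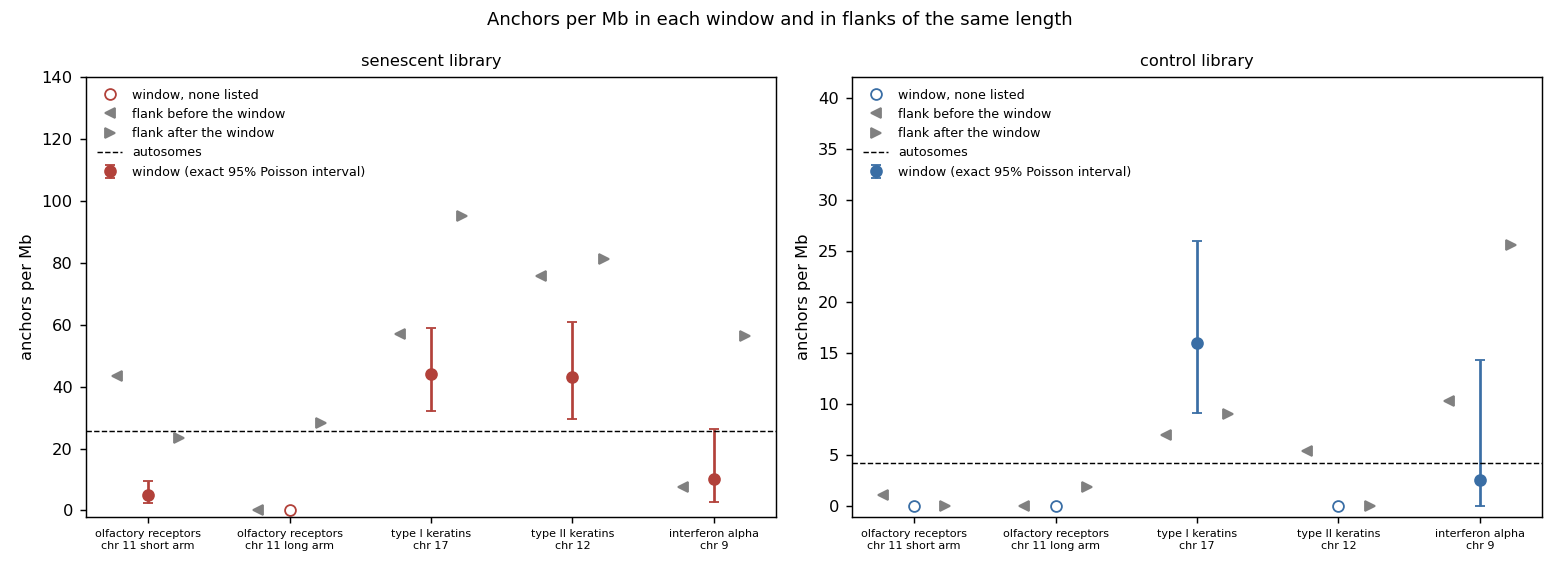
Anchors per Mb (y axis) in each window (points with exact 95% Poisson intervals; open points mark windows with none listed) and in the flanks of the same length (grey triangles), in the senescent library on the left and the control library on the right, with different y scales; the dashed lines are the autosomes (25.8 and 4.24 anchors per Mb). In the senescent library both keratin windows lie above the line and below their flanks, and in the control library the type I window (16.0) lies above both its flanks.

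The type I keratin window was the only one with more than a few contacts in both libraries. It held 154 senescent interactions (190 PETs; 0.102% of the library, 0.0869 to 0.120%) and 25 control interactions (29 PETs; 0.205%, 0.132 to 0.302%). The ratio of shares was 0.501 (0.327 to 0.798), and 0.511 (0.345 to 0.784) for PETs. With both anchors in the window the ratio was 0.314 (0.197 to 0.521), and with at least 2 PETs it was 0.414, with an interval that held 1 (0.140 to 1.65). Without scaling the senescent count was the higher, 6.16 times (4.02 to 9.81). The window differed from its own chromosome: the rest of chromosome 17 had 9896 senescent and 260 control interactions, with shares in the ratio 3.09 (2.73 to 3.51), so that the keratins made up 1.53% of the chromosome's senescent contacts and 8.77% of its control contacts. Set against that rest, the window's ratio was 0.162 (0.106 to 0.258).

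Within the type I window the senescent library had anchors throughout, and the control library had 1 anchor in the last 500 kb. The first 500 kb held 21 senescent and 15 control anchors, and the last 500 kb held 23 and 1. This division was made after the anchors were seen. Interactions with both ends in the first 500 kb numbered 30 and 21, with shares in the ratio 0.116 (0.0643 to 0.213). Interactions with at least 1 anchor there numbered 90 and 25 (0.293, 0.186 to 0.476), and those with at least 1 anchor in the last 500 kb numbered 91 and 2 (3.70, 0.995 to 31.0), the other direction with an interval that held 1. Those within the last 500 kb numbered 32 and 0, and those joining the first to the last 27 and 2. From 200 to 500 kb, the 100-kb pieces held 5, 5 and 9 senescent anchors against 6, 4 and 5 control anchors. The single other control anchor stood between 700 and 800 kb, where 7 senescent anchors did. The senescent library had 7 and 4 more in the pieces from 800 to 1000 kb.

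The single anchor with the most partners lay in the first 500 kb in each library. In the senescent library the anchor with the most partners lay on chromosome 17 at 39107791 to 39117332, with 20 partners and 26 PETs, and overlapped 2 control anchors with 5 PETs in sum. The next lay at 39213710 to 39225336, with 16 partners and 21 PETs. Its control counterpart at 39213710 to 39220279 was also the most connected control anchor, with 5 partners and 6 PETs. Next came the anchor at 39649210 to 39654345 in the last 500 kb, with 11 partners and 13 PETs, where the control library listed none. The anchor at 39064956 to 39067719 had as many partners, with 11 PETs. Control anchors at 39121107 to 39124733 and 39203833 to 39206643 had 4 partners and 6 PETs each; the first overlapped no senescent anchor, and the second overlapped 1 with 4 PETs.

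The strongest type I contacts differed. In the senescent library they joined 39703043 to 39712320 with 39801110 to 39809612, just past the window's end (4 PETs, 97.7 kb apart), and with 39693716 to 39696322 (4 PETs, 12.7 kb). Another with 4 PETs joined 39682464 to 39688059 with 39693716 to 39696322. All 3 had an anchor in the last 500 kb, where the control library listed only 1 anchor. A senescent contact with 3 PETs joined 39295354 to 39298567 with 39533295 to 39540114 across 240 kb. In the control library no interaction had more than 2 PETs, and the 4 with that number all lay in the first 500 kb. The first of them joined 39070418 to 39073580 with 39213710 to 39220279, at 145 kb. The longest spans were single PETs, of 1902 kb from 39533295 in the senescent library and 1418 kb from 39121107 in the control library.

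**Figure D4:**
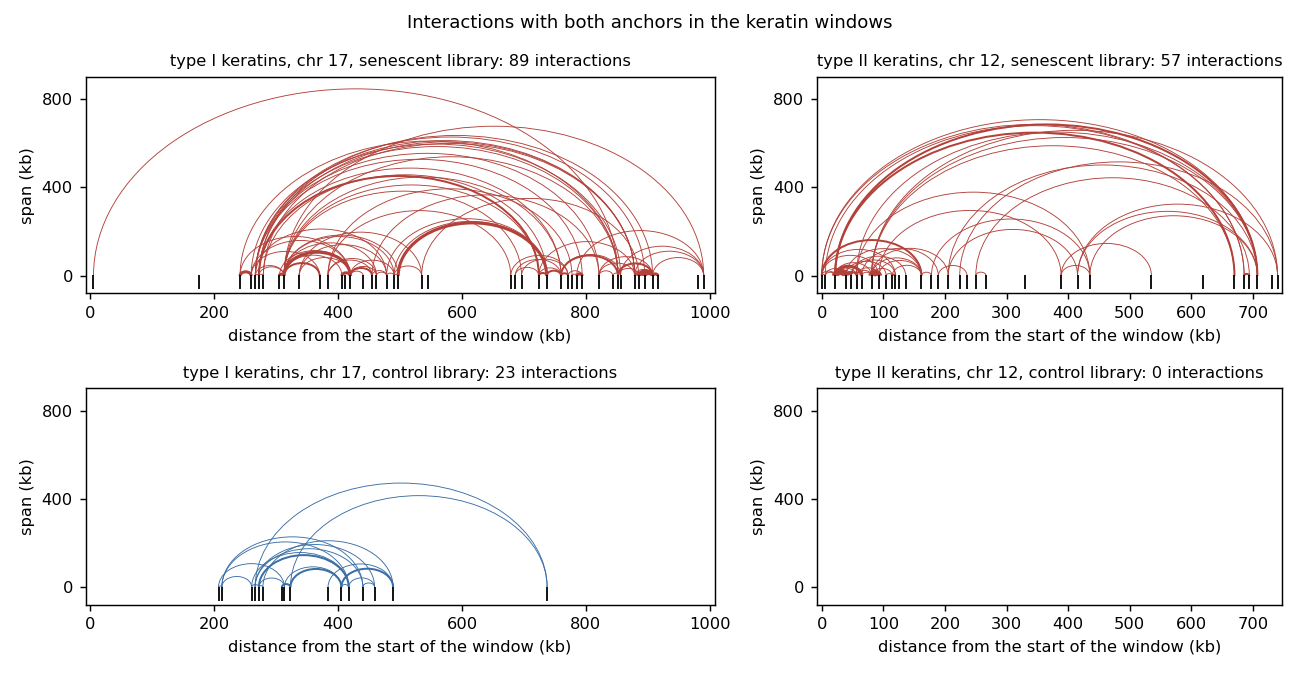
Interactions with both anchors in the type I keratin window (left) and the type II keratin window (right), in the senescent library (top) and the control library (bottom); the x axis is the distance from the start of the window (kb), each arc is 1 interaction whose height is its span (y axis, kb), thicker arcs have more PETs, and ticks are anchors. The senescent library shows 89 type I and 57 type II interactions and the control library 23 and 0.

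Most control anchors of the type I window recurred in the senescent library, as did most of all control anchors. Of 44 senescent anchors, 13 overlapped a control anchor (29.5%, 16.8 to 45.2%), against 8051 of all 72944 senescent anchors. Of 16 control anchors, 13 overlapped a senescent anchor (81.2%, 54.4 to 96.0%), against 69.8% of all control anchors. The pairs, which need both anchors to recur, did so less. A counterpart at both anchors was found for 7 of 154 senescent interactions (4.55%, 1.85 to 9.14%) and 6 of 25 control interactions (24.0%, 9.36 to 45.1%). The same share over all interactions was not computed, so it is not known whether the keratins differ in this. Merged where they overlapped, the anchors gave 12 sites listed in both libraries. At 39107791 to 39117332 there were 26 senescent and 5 control PETs, a ratio of 0.406 (0.153 to 1.35) per deposited PET. The site from 39213710 to 39225336 had 21 and 6 PETs, a ratio of 0.273 (0.107 to 0.827). That from 39070418 to 39073580 had 11 and 5, a ratio of 0.172 (0.055 to 0.630). The intervals of the last pair stayed under 1. The sites from 39064956 to 39067719 (11 and 3 PETs, 0.286, 0.0756 to 1.60) and from 39533295 to 39540114 (12 and 2 PETs, 0.468, 0.104 to 4.31) had intervals that held 1. At 39252477 to 39263671 there were 10 and 4 PETs, a ratio of 0.195 (0.0563 to 0.852). The only one of the 12 sites with fewer senescent than control PETs, named after its values were seen, was 39203833 to 39208393, with 4 and 6 PETs.

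Of the 8 sites with at least 10 PETs over both libraries, 8 were over 2-fold lower in the senescent library per deposited PET. So were 66.1% of the 2855 such sites of the autosomes, and the median log2 ratio was -2.12 at the 8 sites and -1.68 over all of them. These sites are picked by the smaller table, and the direction rests on the scaling: 7 of the 8 had more PETs in the senescent library, as did 2521 of the 2855.

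The type II keratin window had 132 interactions and 157 PETs in the senescent library (0.0878%, 0.0734 to 0.104%) and no listed contact or anchor in the control library. At the control library's total, the senescent share would amount to 10.7 interactions, and that of the type I window to 12.5, where 25 were listed. Windows of the type II length, tiled along the autosomes, held no control anchor in 44.2% of cases. Those windows were not matched to this one in senescent anchors, and 24.4% of them held at least as many. The control library listed no anchor from 52420294 to 57764373 on chromosome 12, a stretch of 5.34 Mb that runs well past the keratins and ranked 53 of 11785 such stretches of the autosomes by length. Chromosome 12 as a whole had 7815 senescent and 709 control interactions.

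Senescent type II anchors stood mainly near the start of the window, with fewer in its middle and some more towards its far end. The first 3 pieces of 100 kb held 8, 8 and 5 anchors, the next 3 held 2, 2 and 1, and the piece from 600 to 700 kb held 4. PET ends followed, with 115, 35 and 12 in the first 3 pieces, against 5, 11 and 1 in the next 3 and 16 from 600 to 700 kb. The stretch past 700 kb, too short for a full piece, was not in these counts. Its anchors had 13 PETs at 53262493 to 53272099, 5 at 53289128 to 53292500 and 6 at 53296747 to 53303332. The last of these crossed the window's edge. The anchor at 52573007 to 52590218 was 17.2 kb wide and had 23 partners and 36 PETs, the most of any anchor of the 5 windows. It was followed by 52636900 to 52644977 (15 partners, 21 PETs) and 52556530 to 52563434 (12 partners, 14 PETs). At the far end, 53262493 to 53272099 had 12 partners and 13 PETs. The strongest contacts joined 52573007 to 52590218 with 52594993 to 52602897 and 52636900 to 52644977 with 52649278 to 52655865. Each had 6 PETs, at 17.3 and 11.6 kb, the most of any member. The longest contact, 1 PET across 1861 kb, joined 50719440 to 50722067 with that first anchor. With the window divided in 3 parts of 247 kb, 34 interactions stayed in the first part, 2 in the middle and 1 in the last. Another 11 joined the first to the last across a median of 651 kb, 4 the first to the middle and 5 the middle to the last.

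Contacts of the type I keratin window reached outwards more often in the senescent library. Both anchors lay in the type I window for 89 of 154 senescent interactions (57.8%, 49.6 to 65.7%) and 23 of 25 control interactions (92.0%, 74.0 to 99.0%). In the type II window this held for 57 of 132 senescent interactions (43.2%, 34.6 to 52.1%). Outside partners of the type I window in the senescent library were 28 before and 37 after it, at a median of 200 kb from its edge; those of the type II window were 37 and 38, at 96.3 kb. The 2 outward contacts of the control library lay 1 on each side. An outward contact needs a listed anchor outside the window. Flanks of the type I window's length held 57 and 95 senescent anchors, with 44 inside the window. They held 7 and 9 control anchors, with 16 inside. The part of this in the shares was not tested, and the inside share of windows elsewhere on the autosomes was not computed.

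Spans were longer at the windows in the senescent library than in its other contacts. A pair was a member if either anchor met a window, a rule that takes in long pairs more readily than short ones. The part of this rule in the spans was not tested. Measured from midpoint to midpoint of the anchors, the 307 senescent members spanned a median of 240 kb (162 to 325 kb, binomial order-statistic interval), against 96.9 kb for the rest of that library (95.8 to 98.1 kb). It was 268 kb for the type I window (166 to 454 kb) and 175 kb for the type II window (124 to 296 kb). For the 27 control members it was 105 kb (41.8 to 205 kb), against 85.3 kb for the rest (81.5 to 88.6 kb). Spans of 500 kb or more made up 115 of the 307 senescent members (37.5%), against 16.5% of the rest, and 3 of the 27 control members (11.1%), against 14.3%. Among interactions with at least 2 PETs, the 40 senescent members had a median span of 23.3 kb (12.7 to 57.5 kb), and the rest of that library 20.5 kb. The interval of the members took in the median of the rest, while spans of 500 kb or more made up 10.0% of these members and 1.57% of the rest. No interval was computed for that share. In kb from the window's start, these long members joined 21.6 with 670.1, 707.3 and 815.3 (type II) and 312.6 with 1005.4 (type I). Each had 2 PETs, and the type II ones all shared 1 anchor, 17.2 kb wide. Repeated contacts were about as frequent as elsewhere: 13.0% of senescent members and 14.8% of control members (4 of 27) had at least 2 PETs, against 14.4% and 13.3% of all interactions.

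The short-arm olfactory window, with its globin and TRIM genes, had 17 senescent interactions and 18 PETs (0.0113%, 0.00659 to 0.0181%) at 9 anchors. The control library listed none there, in a stretch without anchors of 4.88 Mb from 3809173 to 8691622. At the control total, the senescent share would amount to 1.38 interactions. Windows of this length tiled along the autosomes held no control anchor in 24.9% of cases. The senescent anchors lay between 4912664 and 5712093, and the first 513 kb of the window had none. The anchors with the most partners, 4 each, were at 5223350 to 5226260 and 5306940 to 5312987. These were also joined to each other by 1 PET. The only contact with 2 PETs joined 5620871 to 5625037 with 5645069 to 5647527, 23.3 kb apart. Of the 17 contacts, 5 stayed in the window and 12 left it, 11 of these towards the side of the long arm at a median of 332 kb past the edge. The longest, 1 PET across 1971 kb, joined 5620871 to 5625037 with 7592107 to 7594836.

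The long-arm olfactory window was empty in both libraries. It lay in a stretch without anchors from 48216479 to 56836914 (8.62 Mb) in the senescent library, and from 47640519 to 58068014 (10.4 Mb) in the control library. The stretches ranked 4 of 71803 and 9 of 11785 on the autosomes by length. They take in the centromere of chromosome 11, where reads are hard to place, so that a lack of contacts and a lack of placed reads cannot be told apart in that part. Windows of this length tiled along the autosomes held no senescent anchor in 10.9% of cases and no control anchor in 27.8%.

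The interferon window had 4 interactions with 7 PETs in the senescent library and 2 with 1 PET each in the control library, with shares in the ratio 0.163 (0.0233 to 1.80). In the senescent library 3 of the 4 ended at the anchor 21442518 to 21450500, just past the window. They came from 21437209 to 21439493 (3 PETs, 8.16 kb), from 21434086 to 21436658 (2 PETs, 11.1 kb) and from 21293552 to 21295497 (1 PET, 152 kb). The remaining one joined 21152438 to 21155028 with 21026383 to 21033141, outside the other end. In the control library the anchor 21069087 to 21070929 was joined with 21026383 to 21029699 and, 613 kb away, with 21674088 to 21691482. No contact of either library joined 2 sites of the window, and no anchor of the window was listed in both. Tiles of the same length held a median of 7 senescent anchors over the autosomes, against 4 in the window. At these counts a difference between the libraries was not detectable.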

How the data were processed

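In the headerless tables, a row holds 2 anchors, a whole number read as the authors' raw PET count, and a last value read as the authors' deposited p-value or q-value, whichever it is. The submitters' processing notes name hg19 and HiC-Pro 3.1.0. No source used here gives the loop caller, duplicate removal or mapping filters. The totals are those of the tables and not sequencing depths.

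Anchors and interactions were counted with pandas 2.3.3 and numpy 2.4.6 in Python 3.11.15, and intervals came from scipy 1.17.1. Spans run between anchor midpoints; anchors overlapping by 1 bp were shared. Autosomal densities and 100-kb pieces run between the outermost listed anchors. Promoters came from RefSeq (GRCh38.p14) and were aligned globally with Biopython 1.88; those of OR51E2 and KRT14 were also to be shown. Promoters were found for 38 of 54 short-arm and 43 of 46 long-arm olfactory genes, 53 of 62 type I and 14 of 26 type II keratins and 12 of 15 interferons; some genes have several. Coordinates are 1-based. The intervals of shares and of ratios were tested on simulated independent counts. Listed interactions share anchors, so that test does not show how well the intervals hold here. The intervals of densities and spans were not simulated. Named sites are the interaction with the most PETs, the longest, the anchor with the most partners and the sites in both libraries; further ones in rank were added after the values were seen. Windows and sites were chosen with earlier results of these data known.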

Additional observations from a re-analysis of the deposited data

How the results depend on the processing

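No paired analysis was possible because each state had 1 library, which also leaves no replicate to leave out. Of 62 recomputed values, 48 stayed within the interval of the reported value. Scaling decided the direction: without scaling, the ratio was 11.4 for interactions and 12 for PETs over the 5 windows, and the type I keratin window reversed, to 6.16 for interactions and 6.55 for PETs. Scaled to the other contacts of its chromosome, that window gave 0.162 for interactions and 0.167 for PETs. With both anchors in the window, the ratio was 0.534 for interactions (0.343 to 0.867) and 0.584 for PETs (0.390 to 0.908) over the 5 windows, and 0.314 for type I interactions. All 23 control interactions of that kind lay in the type I window. With at least 2 PETs the type I ratio was 0.414, and its interval (0.140 to 1.65) held 1. The median span of senescent members was 153 kb weighted by PETs and 23.3 kb with at least 2 PETs. The control anchor density relative to the autosomes was 0.726, and 1.20 for anchors with at least 2 PETs. With flanks of 500 kb the control density relative to the flanks was 0.512 in place of 0.872. The ratio of the type II and short-arm olfactory windows could not be computed under any setting, since the control library listed none. For the interferon window, the ratios without scaling were 2.0 for interactions and 3.5 for PETs, spans of at least 20 kb gave 0.0789 and 0.0767, and asking for 2 PETs or both anchors in the window, or shrinking it, left no ratio to compute. The counts limit all values of the control library, which rest on 27 interactions.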
